A study of Mus musculus with 26 samples.

Results

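The genes described here are the translation initiation and elongation factors of the mouse. They were chosen by name: every protein-coding gene of the GENCODE vM21 annotation whose symbol begins with Eif1 to Eif6 or with Eef1 or Eef2 is a member, apart from Eif4e1b, Eif4enif1 and the Eif2ak kinases. The rule found 62 members among the 55401 gene IDs of the count table, of which 21897 are protein-coding. The rule itself uses no measured value, but the family was chosen with earlier results of these data known.

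Translation of an mRNA begins when initiation factors load a ribosome onto it. eIF2 brings the initiator tRNA and eIF2B recharges eIF2 with GTP. eIF3 is a scaffold on the small ribosomal subunit, and the eIF4F complex binds the mRNA cap and unwinds the leader. eIF1, eIF1A, eIF5 and eIF5B select the start codon and join the large subunit, while eIF6 keeps that subunit apart until it is needed. Elongation factors then move the ribosome along: eEF1A delivers aminoacyl-tRNA and eEF2 drives translocation. The fully grown oocyte is nearly silent in transcription, and the early embryo makes its proteins largely from stored maternal mRNA. Binding sites for c-Myc with its partner Max have long been described at genes of the translation machinery.

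The libraries fall into 2 separately numbered series. In the first series, 7 libraries of 1-cell embryos treated with the c-Myc inhibitor 10058-F4, which disturbs the pairing of c-Myc with Max, were set against 7 libraries of untreated embryos. In the second, 4 libraries of embryos treated with alpha-amanitin, a toxin that blocks RNA polymerase II, were set against 4 libraries of untreated embryos, and 4 libraries of unfertilised MII oocytes served as the starting point. The oocytes were B6D2F1 and the embryos came from in vitro fertilisation between B6D2F1 parents. The labels give the embryos an age of 10 h. The c-Myc inhibitor was added 2 h after gametes were mixed and alpha-amanitin (100 µg/ml) after 1 h, each for 10 h, so the protocol's times and the labels' age do not match. The dose of the c-Myc inhibitor, the number of cells per library and the donors are not stated in these sources, so p-values measure the spread between libraries, which may be technical. No targeted gene exists in this design that could check the labels.

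Libraries of the first series held 20566278 to 27266040 counts, and those of the second 5371602 to 31540627. The shallowest was alpha-amanitin replicate 3, in which 45 of the 62 members had a count. Levels are given as CPM, each count as its share of the library's scaled total. A gene without a count may still reach 0.11 to 0.146 CPM (3 counts, counting error only) in libraries of the first series, and 0.0951 to 0.558 CPM in those of the second. Within groups, libraries correlated with a median Spearman rho of 0.949 with the c-Myc inhibitor and 0.943 in its control, but 0.808 with alpha-amanitin, 0.839 in its control and 0.925 in oocytes. All 9 oocyte markers had counts in every library except alpha-amanitin replicates 3 and 4. Of 16 cumulus and granulosa markers 2 had no count anywhere (Areg and Ereg), and their summed level lay between 0.719 and 27.2 CPM over all libraries. As totals are relative, less of an mRNA per embryo and fewer embryos holding it cannot be told apart.

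The DNA letters that c-Myc and Max are known to bind, the E-box CACGTG, were looked up in the RefSeq promoters of these genes (GRCm38.p6, 250 bases before to 50 after each start), because the inhibitor acts on that pair of proteins. The motif reads the same on both strands, and no other motif was searched. Of the 47 members with a promoter entry 13 held it, or 27.7%, against 8.09% of all 27025 genes with an entry and 11.7% of the 8936 protein-coding genes tested under the c-Myc inhibitor. A gene with several annotated starts has several entries and was counted if any of them held the motif. Counted entry by entry, 15 of 58 held it among members (25.9%), against 7.15% of all 32851 entries. Among the protein-coding genes tested under the c-Myc inhibitor the share was 9.76% of 11477 entries. Eif4e, the cap-binding protein, has 2 entries. The one at the outer start, whose upstream bases are chr3:138525941-138526190, held no E-box. The other belongs to a start further inside the gene and held 2, whose first bases lie at -228 and -64 from that inner start. The 250 bases before the inner start are shown because Eif4e was among the members with lower counts under the inhibitor, with the E-boxes in capitals. Which start the embryos used was not measured.
Eif4e, chr3:138527018-138527267, plus strand: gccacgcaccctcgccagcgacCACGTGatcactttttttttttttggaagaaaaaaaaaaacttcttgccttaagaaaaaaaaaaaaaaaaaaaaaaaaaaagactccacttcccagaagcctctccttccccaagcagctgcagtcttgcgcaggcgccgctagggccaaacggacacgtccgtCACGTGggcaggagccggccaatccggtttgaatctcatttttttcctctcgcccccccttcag
The stretches of 30 bases that follow, with the E-box in capitals, belong to Eef2 and Eif3a, which the inhibitor comparison called, and to 4 members that it did not call.
Eef2, chr10:81176576-81176605, plus strand: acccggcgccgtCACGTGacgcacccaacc
Eif3a, chr19:60790654-60790683, minus strand: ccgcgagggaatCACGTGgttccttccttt
Eif4g1, chr16:20672661-20672690, plus strand: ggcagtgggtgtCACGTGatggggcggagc
Eif4a1, chr11:69672595-69672624, minus strand: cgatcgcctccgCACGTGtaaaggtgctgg
Eif4h, chr5:134639488-134639517, minus strand: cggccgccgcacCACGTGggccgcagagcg
Eef2k, chr7:120842788-120842817, plus strand: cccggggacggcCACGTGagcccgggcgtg
A match describes these letters only. Of the members called higher under the inhibitor 1 of 6 with an entry held the motif (Eef2), of those called lower 2 of 5 (Eif4e and Eif3a), and of those not called 9 of 33. The share among members not called was 27.3%.

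Members differed widely in level. Per kilobase of exon, the only scale on which genes are compared here, Eef1a1, which delivers tRNA to the elongating ribosome, had the highest mean over the 26 libraries, 189.3 CPM per kb. Eif1b, a form of the start-codon factor eIF1, followed at 173.6 CPM per kb. The order of their means differed between the series: Eef1a1 was the higher of the pair in both groups of the first series. Eif1b was the higher in the second, at 219 against 129.9 CPM per kb with alpha-amanitin and 234 against 126.7 in its control. In oocytes, at 139.1 against 137.2, the gap was within the spread between libraries (SD 20.13 for Eif1b and 31.6 for Eef1a1, n = 4). The third was Eif4b, a cofactor of the eIF4A helicase, at a mean of 108 CPM per kb. Eef2 was at 68.31, Eif5a, a factor that helps ribosomes past difficult peptide bonds, at 67.73 and Eif4e3, a relative of the cap-binding protein, at 66.85 CPM per kb, a difference within the spread between libraries. Summed over all members, treated and control libraries of the first series held 7709.6 ± 299 and 7696 ± 288 CPM (SD, n = 7 each). The sum was 6390.2 ± 259 CPM with alpha-amanitin, 6235 ± 253 CPM in its control and 6492 ± 216 CPM in oocytes (SD, n = 4 each).

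**Figure D1:**
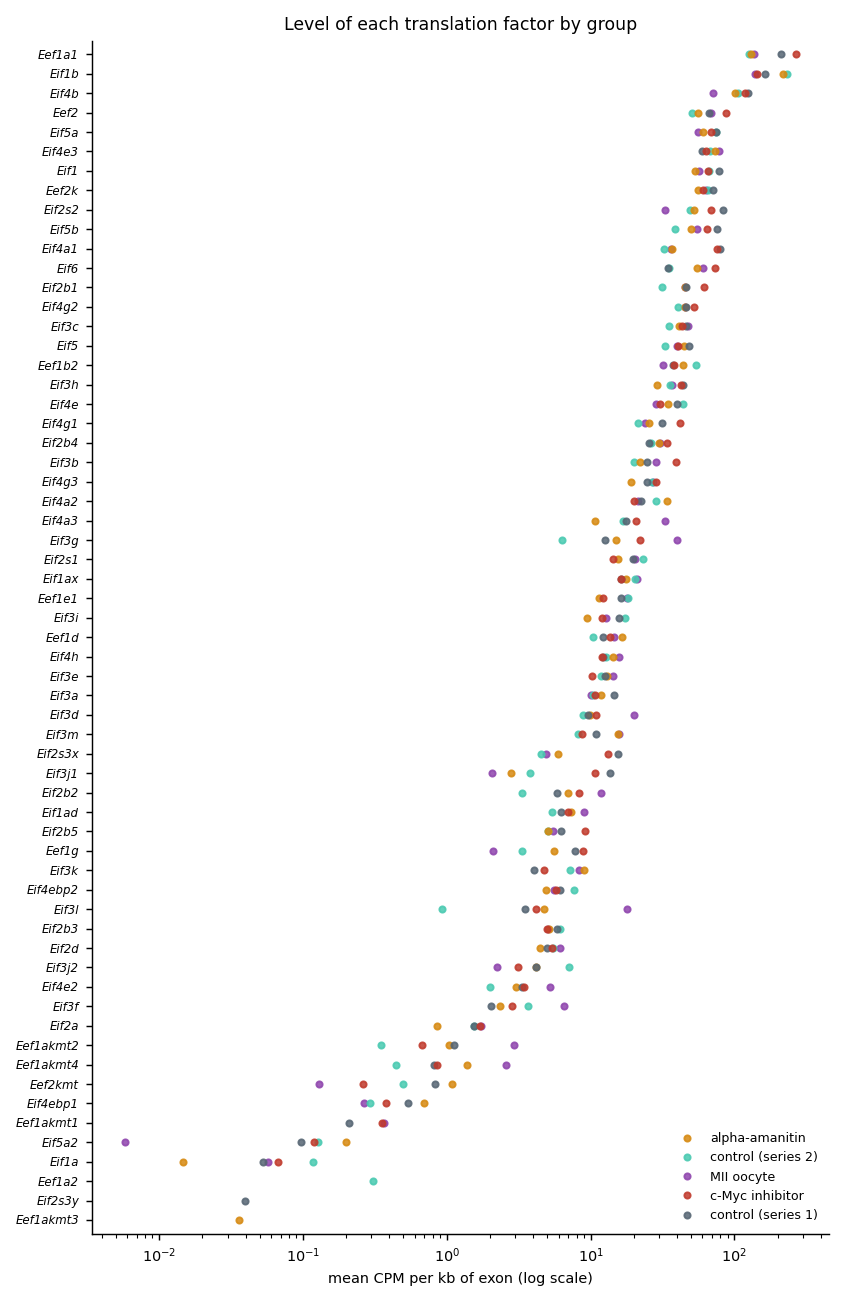
Mean level of each member in CPM per kb of exon (log axis), 1 point per group, with members ordered by their mean over all libraries. Groups with no count have no point, and Eif4ebp3, at 0 in every library, is left out. Most members lie between 1 and 100 CPM per kb, and Eef1a1 at the top exceeds members at the foot by several powers of 10.

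In several families of paralogues 1 copy carried nearly all the counts, and in others the copies were both abundant. Eif1ax, on the X chromosome, averaged 93.95 CPM over all libraries, against 0.2559 CPM for its autosomal copy Eif1a. Eif2s3x, which encodes the gamma subunit of eIF2, was at 38.48 CPM, while its Y-linked copy Eif2s3y had 27 counts in control replicate 1 of the first series and none elsewhere. Eef1a2, the form of eEF1A known from muscle and neurons, had counts in 1 library only, a control of the second series. Eif5a was at 161 CPM, and the highest level of Eif5a2 in any library was 4.01 CPM. In the family of cap-binding proteins Eif4e averaged 35.45, Eif4e3 66.85 and Eif4e2, a repressive relative, 3.41 CPM per kb. Eif1 and Eif1b averaged 65.95 and 173.6 CPM per kb, the helicases Eif4a1 and Eif4a2 58.32 and 24.42, and the scaffolds Eif4g1 and Eif4g3 30.61 and 25.58. Of the 4E-binding proteins, which block eIF4E, Eif4ebp2 averaged 34.58 CPM, Eif4ebp1 never exceeded 6.09 CPM in a library and Eif4ebp3 was at 0 in all. Eif3j1 and Eif3j2 averaged 45.93 and 9.668 CPM. These copies are nearly identical in places, so how the reads were split between them is uncertain.

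Under the c-Myc inhibitor, 55 members passed the filter on low counts, and the remaining 7 (Eif1a, Eif2s3y, Eif4ebp3, Eif5a2, Eef1a2, Eef1akmt1 and Eef1akmt3) had means below 1 CPM in treated and control embryos alike. In all, 7 members were higher and 5 lower (edgeR quasi-likelihood test, Benjamini-Hochberg adjusted p under 0.05 over 13003 genes). Of all genes tested 6.82% were higher and 4.08% lower. The share of members called in either direction, 12 of 55, was thus above the 10.9% of all genes, but the median log2 fold change of the members was -0.03, against -0.000489 over all genes. That background was not matched to the members' levels. The called genes included eIF6, subunits of eIF2B and eIF3 and the main elongation factors on the higher side, and subunits of eIF2 and eIF3, eIF4E and eIF5 on the lower side.

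**Figure D2:**
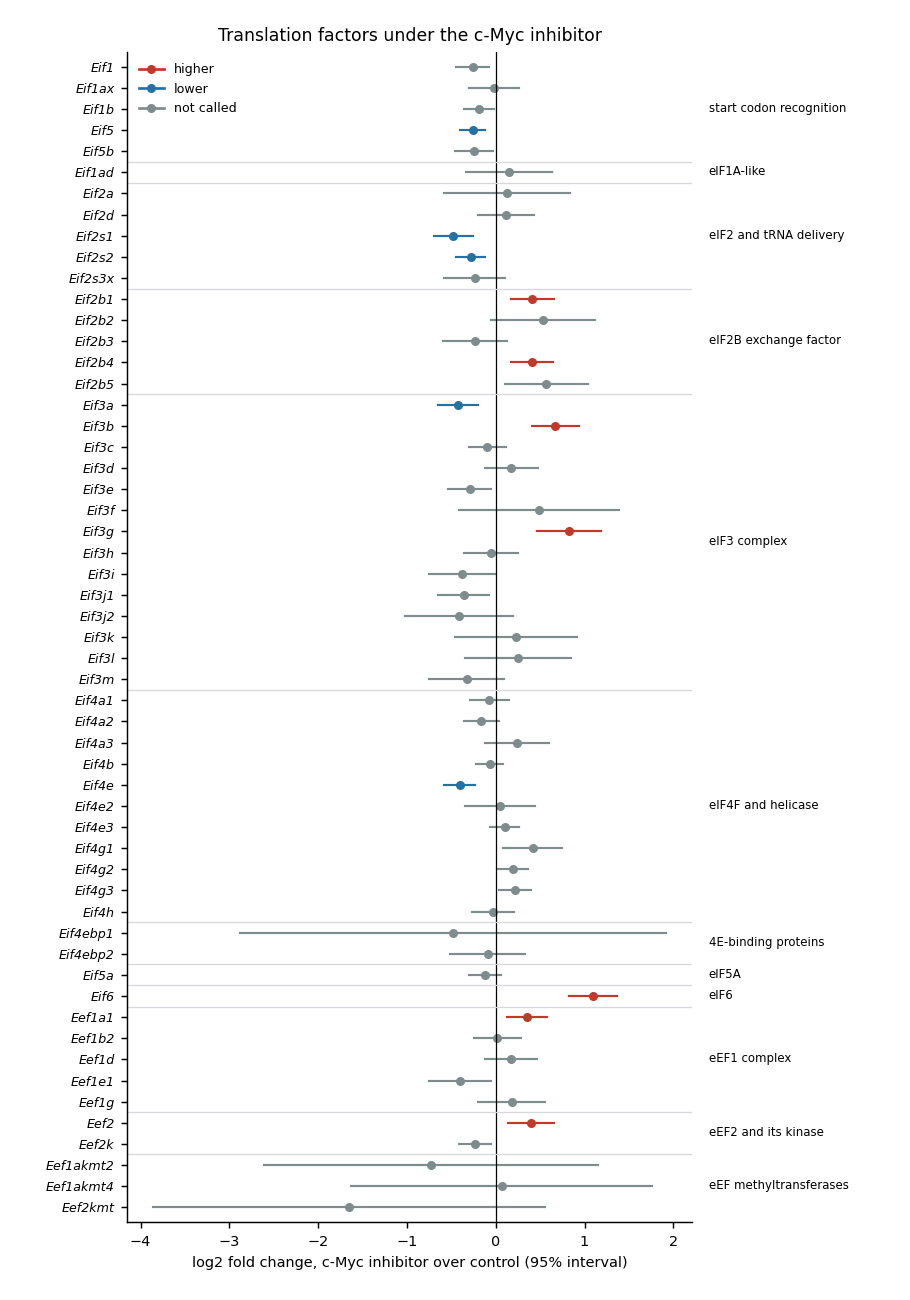
Log2 fold change of the 55 members tested, c-Myc inhibitor over control (7 libraries each), with 95% intervals from the edgeR fit, grouped by role. Eif6 stands farthest to the right among the called members at 1.10, and the eIF3 subunits spread over both sides of 0.

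Eif6 (ENSMUSG00000027613, chromosome 2, 155819832 to 155826925, GRCm38) rose most. Its levels ran from 152.5 to 272.8 CPM with the inhibitor (median 175.2) and from 74.61 to 115.6 CPM in the control (median 92.32). Every treated library lay above every control, and the 3 highest were treated replicates 5, 7 and 8. The log2 fold change was 1.10 (edgeR, SE 0.13, adjusted p = 2.41e-06), a 2.14-fold difference, and the call held in all 22 alternatives tried. Group ranges failed to overlap upward in 1 member, Eif6, and downward in 3, against 2.87% and 1.01% of all genes tested (3.88% in either direction).

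Within eIF2, which carries the initiator tRNA, 2 of 5 tested genes fell and 0 rose, where 4.08% of all genes fell and 6.82% rose. Eif2s1 (ENSMUSG00000021116, chromosome 12, 78861819 to 78887010) encodes the alpha subunit, which stress kinases phosphorylate to slow initiation. Its level ran from 58.68 to 86.94 CPM with the inhibitor (median 68.37), below all controls at 89.51 to 115.7 CPM (median 96.43). The log2 fold change was -0.48 (SE 0.11, edgeR adjusted p = 0.00375). Eif2s2 (ENSMUSG00000074656, chromosome 2, 154871410 to 154892935), the beta subunit, was at 365 to 521.6 CPM (median 470.5) with the inhibitor and at 521.2 to 607.1 CPM (median 547.1) in the control, ranges that touch at their ends. It fell by 0.28 on the log2 scale (SE 0.08, edgeR adjusted p = 0.021). Eif2s3x, Eif2d and Eif2a, the last pair being factors that can deliver tRNA in the place of eIF2, had log2 fold changes of -0.23, 0.12 and 0.13 and were not called.

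In the exchange factor eIF2B, 2 of 5 genes rose and 0 fell, where 6.82% of all genes rose and 4.08% fell. Eif2b1 (ENSMUSG00000029388, chromosome 5, 124570213 to 124579131) and Eif2b4 (ENSMUSG00000029145, chromosome 5, 31187558 to 31193430), its alpha and delta subunits, belong to the part of the complex that senses phosphorylated eIF2. Eif2b1 was at 128.3 to 196.9 CPM (median 153) with the inhibitor and at 92.6 to 149.8 CPM (median 121.7) in the control. Eif2b4 was at 77.74 to 108.7 CPM (median 80.87) with the inhibitor and at 54.58 to 79.14 CPM (median 70.09) in the control. Both sets of ranges overlap, and each gene rose by 0.41 on the log2 scale (SE 0.12 each, edgeR adjusted p = 0.0248 and 0.024). Each call was lost in 4 of the 14 fits that omit 1 library. In all, Eif2b1 lost its call in 7 and Eif2b4 in 8 of 22 alternatives. Eif2b5, the catalytic epsilon subunit, was at 0.57 and Eif2b2 at 0.53, neither called (adjusted p = 0.122 and 0.297), and Eif2b3 was at -0.23.

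In eIF3, the largest initiation factor, 2 of 14 genes rose and 1 fell, where 6.82% of all genes rose and 4.08% fell. Eif3g (ENSMUSG00000070319, chromosome 9, 20894349 to 20898623), an RNA-binding subunit, was at 26.77 to 51.24 CPM with the inhibitor (median 47.49) and at 17.14 to 32.57 CPM in the control (median 23.6). Only treated replicate 2 lay within the control range. Eif3g rose by 0.82 (SE 0.17, edgeR adjusted p = 0.00247). Eif3b (ENSMUSG00000056076, chromosome 5, 140419328 to 140443360), a core scaffold subunit, was at 96.26 to 170.3 CPM (median 117.2) with the inhibitor and at 68.4 to 98.36 CPM (median 85.05) in the control, and rose by 0.67 (SE 0.13, edgeR adjusted p = 0.00078). Eif3a (ENSMUSG00000024991, chromosome 19, 60761117 to 60790658), the other large scaffold subunit, fell by 0.43 (SE 0.11, edgeR adjusted p = 0.0125). It was at 67.92 to 115.7 CPM (median 100.5) with the inhibitor and at 114.1 to 140.4 CPM (median 127.3) in the control. The remaining 11 subunits, with log2 fold changes from -0.41 (Eif3j2) to 0.49 (Eif3f), were not called, so calls in both directions fell within 1 complex.

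Of 11 genes of eIF4F and its helicase partners 1 was called, Eif4e (ENSMUSG00000028156, chromosome 3, 138526179 to 138559696), against 10.9% of all genes. It was at 154.9 to 202.4 CPM with the inhibitor (median 186.5), below all controls at 215.4 to 289.2 CPM (median 230.7). Eif4e fell by 0.41 on the log2 scale (SE 0.09, edgeR adjusted p = 0.00236), a fold change of 0.754. The scaffold Eif4g1 had a log2 fold change of 0.42 with an adjusted p of 0.106, and the helicases Eif4a1 and Eif4a2 had -0.07 and -0.16. The relatives Eif4e2 and Eif4e3 were at 0.05 and 0.10. The intervals of these changes run from -0.35 to 0.45 for Eif4e2 and from -0.07 to 0.26 for Eif4e3. Of the repressors of eIF4E, Eif4ebp2 was at -0.09 and Eif4ebp1 at -0.48, neither called. Eif4ebp1 was scarce, with means of 0.836 CPM with the inhibitor and 1.175 CPM in the control. Among the start-codon factors Eif5 (ENSMUSG00000021282, chromosome 12, 111538016 to 111546752), which triggers GTP hydrolysis on eIF2, was at 263.1 to 295.8 CPM (median 275.9) with the inhibitor and at 296.5 to 373.5 CPM (median 327.6) in the control. Its ranges did not overlap, but by less than 1 CPM, and it fell by 0.26 (SE 0.07, edgeR adjusted p = 0.014). Eif1, Eif1b, Eif5b and Eif1ax had -0.26, -0.19, -0.24 and -0.02 and were not called.

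Both main elongation factors were higher, with overlapping groups. Eef2 (ENSMUSG00000034994, chromosome 10, 81176631 to 81182498) was at 195 to 393.4 CPM (median 266.4) with the inhibitor and at 183.7 to 255.7 CPM (median 222) in the control. It rose by 0.40 (SE 0.12, edgeR adjusted p = 0.0384). Eef1a1 (ENSMUSG00000037742, chromosome 9, 78478449 to 78489151) was at 557.5 to 860.5 CPM (median 668.2) with the inhibitor and at 397.7 to 617.6 CPM (median 506.6) in the control, a rise of 0.35 (SE 0.11, edgeR adjusted p = 0.0386). In both genes, and in Eif3b, treated replicates 5, 7 and 8 were again the 3 highest. Across genes, these libraries stood closer to each other than to treated replicates 1 to 4 by chi-square per degree of freedom. It was 38.29 to 46.75 within replicates 1 to 4, 38.54 to 47.46 within 5, 7 and 8, and 53.02 to 70.4 across. Spearman correlations overlapped (0.944 to 0.958 within either set, 0.942 to 0.956 across). What set these libraries apart was not tested. The calls of Eef2 and Eef1a1 were lost in 9 and 8 of the 14 fits that omit 1 library, among them those without treated replicate 5, 7 or 8. Eef2k, the kinase that inhibits eEF2, had a log2 fold change of -0.23 (adjusted p = 0.0814), and the subunits of the exchange factor for eEF1A lay between 0.02 (Eef1b2) and 0.18 (Eef1g).

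**Figure D3:**
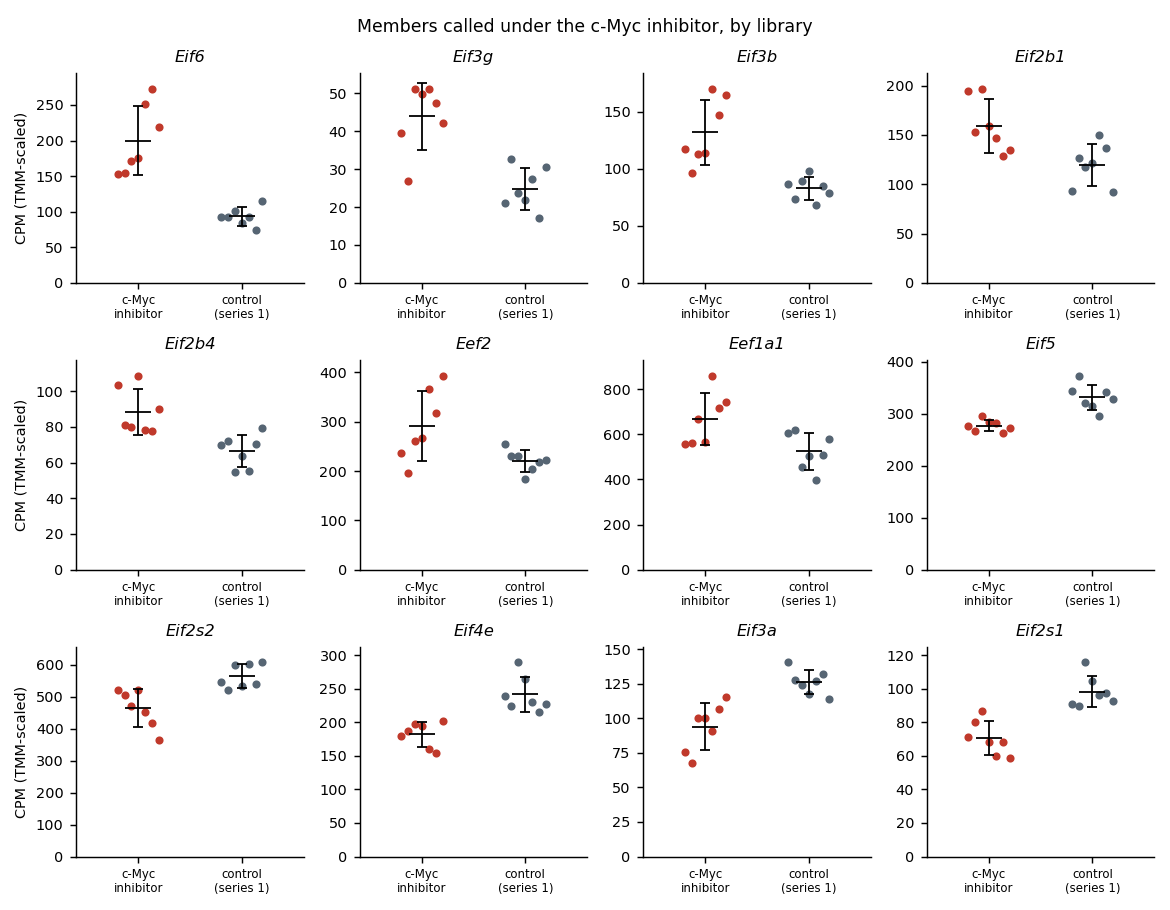
Level in CPM of the 12 called members in each library of the first series, with mean and SD (n = 7 each), c-Myc inhibitor at the left and control at the right of each panel. Eif6, Eif5, Eif4e and Eif2s1 have groups that do not overlap, with Eif6 at 152.5 to 272.8 CPM against 74.61 to 115.6 CPM.

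Several of these calls depended on how the counts were modelled. In 1 fit of all 5 groups, which shares the wider spread of the second series, the calls of Eif6, Eif3b, Eif4e and Eif2s1 held and the other 8 were lost. The members' changes also moved with base composition. The transcripts of the 7 higher members had GC contents of 47.4 to 57.9% (median 55.9%) and those of the 5 lower members 40.5 to 44.5% (median 41.7%), so the ranges were separate. Over all genes tested, the medians were 52.59% for the higher, 44.7% for the lower and 49.48% for those not called. The Spearman correlation of log2 fold change with GC content was 0.596 over the 55 members and 0.308 over 11294 genes, a description across genes that share libraries. When each library's dependence on GC content was removed with an offset, a step added after the data were seen, all 5 lower members lost their calls: Eif2s1 was at -0.31 (edgeR adjusted p = 0.0664), Eif4e at -0.23 and Eif3a at -0.32 (both 0.103), Eif2s2 at -0.13 (0.362) and Eif5 at -0.10 (0.527). Eif6 (0.85), Eif3g (0.64), Eif3b (0.48), Eif2b1 (0.40) and Eef1a1 (0.40) kept theirs, and Eif2b4 (0.21, adjusted p = 0.387) and Eef2 (0.17, adjusted p = 0.437) did not. With that offset Eif4g2 was newly called higher, and Eif1, Eif1b and Eef2k newly lower. Over all 13003 genes it called 745 higher and 365 lower, against 887 and 531 without it. An earlier form of the offset, which also let the scaling of libraries shift, kept Eif2s1 and lost Eif2b1. The part of GC content in the library preparation was not tested.

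**Figure D4:**
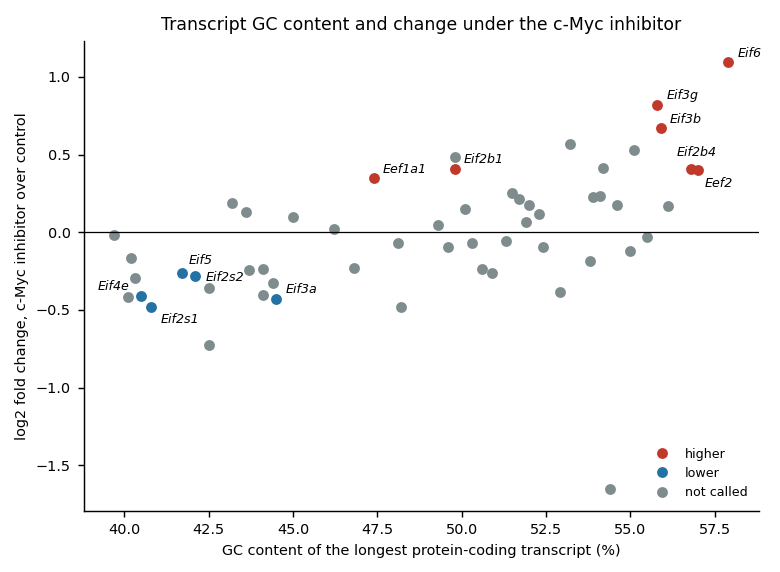
Log2 fold change under the c-Myc inhibitor against the GC content of the longest protein-coding transcript for the 55 members tested. Called higher members lie between 47.4 and 57.9% GC and called lower members between 40.5 and 44.5%.

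Oocyte markers moved with the treatment as well. Their summed level was 6352 to 7675 CPM with the inhibitor and 3467 to 4791 CPM in the control, against 7305 to 8202 CPM in oocytes. Of the 9 markers 6 were called higher, led by Gdf9 at 2.25 on the log2 scale. In group means, Gdf9 went from 419.6 CPM in the control to 1996 CPM with the inhibitor, and H1foo from 565.9 to 1787 CPM. The rise of the sum came mainly from this pair. Zp1, Zp2, Zp3, Oosp1 and Mos rose by less in CPM, to 77.77, 159.3, 48.73, 458.6 and 57 CPM. Oocytes had 232.2, 325.4, 151.1, 702.4 and 172.7 CPM of these. Bmp15 (1391 to 1238 CPM) and Nlrp5 (1121 to 1043 CPM) went the other way. The change of each member was therefore set beside its change from oocyte to control embryo in the second series, which shares no library with it. Of 55 members 42 (76.4%) had opposite signs, against 58.5% of 12280 genes, and the Spearman correlation was -0.523, against -0.232 over all genes. All 7 higher members and 4 of the 5 lower ones had opposite signs, as did 86.9% of all higher and 69.2% of all lower genes. The part that the markers' levels have in the members' changes was not tested.

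Genes that act on these factors were followed in lists written with earlier results of the data known, and their counts stand beside the 6.82% of all genes called higher and the 4.08% called lower. Among the 8 kinases and phosphatase subunits that set eIF2-alpha phosphorylation, Eif2ak1, a kinase activated by low heme, rose by 1.11 (edgeR adjusted p = 1.41e-08) and Ppp1r15a, a stress-induced phosphatase subunit, by 0.97. In that list Ppp1cb, a phosphatase catalytic subunit, fell by 0.42. Of 13 genes of mTORC1 and MNK signalling 4 rose and 0 fell: Mknk1, which phosphorylates eIF4E, by 1.22, Mtor by 0.98, Tsc2 by 0.93 and Tsc1 by 0.35, the last pair being inhibitors of mTORC1. The oocyte's own cap-binding protein Eif4e1b and its partner Eif4enif1 fell by 0.25 and 0.32. Of 7 other initiation helpers and repressors 3 fell, namely Ltv1, a ribosome assembly factor, by 0.40, Pdcd4, an inhibitor of eIF4A, by 0.37 and Gigyf2, a partner of Eif4e2, by 0.23. Among the termination and recycling factors 1 of 8 fell (Gspt2 by 0.29), and of the aminoacyl-tRNA synthetases 1 of 21 rose (Qars by 0.47) and 1 fell (Rars by 0.59). None of 9 poly(A)-binding proteins and partners, 9 mitochondrial translation factors or the 1 hypusine enzyme tested was called. List medians ran from -0.28 to 1.12, the highest from the hypusine enzyme alone, against -0.000489 over all genes.

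Alpha-amanitin gave 0 calls among 55 members tested by edgeR, where 0.0228% of 13133 genes were higher and 0.00761% lower (0.0305% in all). At an unadjusted p under 0.05, 4 members were higher and 2 lower, against 7.51% of all genes in either direction. DESeq2 and limma voom also called 0. The smallest p belonged to Eif3l, a peripheral eIF3 subunit, at 20.1, 12.5, 4.54 and 32.5 CPM with alpha-amanitin and at 9.12, 1.72, 1.04 and 1.68 CPM in the control. Only treated replicate 3, the shallowest library, lay within the control range. The log2 fold change of Eif3l was 2.39 (SE 0.73, edgeR adjusted p = 0.524). Eif6 was at 124, 102, 198 and 172 CPM with alpha-amanitin and at 108, 109.8, 78.2 and 85.8 CPM in the control. The groups overlapped, with a change of 0.66 (95% interval 0.17 to 1.15, adjusted p = 0.524).

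Eif5, at 219.8, 292, 356 and 357 CPM with alpha-amanitin and 228, 230.2, 228 and 216 CPM in the control, changed by 0.46 (adjusted p = 0.524), and Eif5b by 0.39 (0.545). Downward, Eif3i was at 44.0, 32.1, 31.2 and 32.1 CPM with alpha-amanitin and at 64.7, 78.3, 60.6 and 53.9 CPM in the control. Eif2s1 was at 88.4, 85.3, 65.5 and 68.8 CPM with alpha-amanitin and at 100.2, 107, 147 and 103 CPM in the control. These were the 2 members whose groups did not overlap, both lower, where 1.26% of all genes were higher and 1.49% lower without overlap (2.75% in all). Their changes were -0.86 and -0.54 (adjusted p = 0.577 and 0.588). The typical 95% interval of a member reached 0.721 to either side on the log2 scale here, against 0.287 in the first series, so changes of the size seen under the c-Myc inhibitor were mostly not detectable.

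The effects of the inhibitors were compared directly in 1 fit of the 22 embryo libraries. The c-Myc inhibitor effect minus the alpha-amanitin effect was called in 1 of 56 members, Eif5, at -0.71 (SE 0.16, edgeR adjusted p = 0.0213), where 0.678% of 15790 genes had a higher and 0.367% a lower difference (1.04% in all). Eif5 was at 277 ± 11.0 CPM with the c-Myc inhibitor and 332 ± 24.7 CPM in its control (SD, n = 7 each), and at 306 ± 65.1 CPM with alpha-amanitin and 226 ± 6.28 CPM in its control (SD, n = 4 each). The call was lost with no filter, with limma voom, with a replicate block and with both forms of the GC offset (adjusted p up to 0.187). Eif6, which had risen under the c-Myc inhibitor, had a difference of 0.44 (95% interval -0.10 to 0.99, adjusted p = 0.417).

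Between MII oocytes and control embryos of the second series, 1 member was higher and 2 were lower in the embryos, where 1.11% of all genes were higher and 1.78% lower (2.89% in all). Eif3l fell most. It was at 9.12, 1.72, 1.04 and 1.68 CPM in control embryos and at 56.5, 78.4, 71.4 and 55.5 CPM in oocytes, far apart in every library. The log2 fold change of Eif3l (ENSMUSG00000033047, chromosome 15, 79075179 to 79094405) was -4.27 (SE 0.79, edgeR adjusted p = 0.00346), and its call held in all 20 alternatives. Eif3g was at 4.00, 18.3, 20.4 and 7.46 CPM in control embryos and at 53.6, 98.9, 79.2 and 87.5 CPM in oocytes, a change of -2.68 (SE 0.68, edgeR adjusted p = 0.036). Eif4b (ENSMUSG00000058655, chromosome 15, 102073773 to 102097173) was at 479, 531, 404 and 465 CPM in control embryos and at 317, 329, 294 and 329.7 CPM in oocytes, a rise of 0.56 (SE 0.14, edgeR adjusted p = 0.0269). The calls of Eif3g and Eif4b were lost whenever any of 7 libraries was omitted, namely each of the 4 oocyte libraries and control replicates 1, 2 and 4. Oocyte markers changed between the same groups: 5 of 9 were called lower in the embryos, with a summed level of 3773 to 4322 CPM against 7305 to 8202 CPM in oocytes.

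In 4 members all control embryos lay above all oocytes, and in 11 all lay below, against 5% and 9.43% of all genes (14.4% in all). Those above were Eif4b, Eif4e, Eif2s2 and Eef1b2. Those below were Eif3l, Eif3g, Eif3b, Eif3d and Eif3m of eIF3, Eif4a3, a helicase of the exon junction complex, the cap-binding relative Eif4e2, and Eif2b2, Eif5b, Eif6 and Eef2. Eif6 had a log2 fold change of -0.79 (edgeR adjusted p = 0.0849) and Eif2s2 of 0.58 (0.0901), neither called. In the lists around the factors, Mknk1 and Mtor fell by 2.96 and 2.09, Eif2ak1 by 0.92, Iars by 1.46 and Rars by 1.43, while Sars rose by 1.02 and Gigyf2 by 0.77. All 7 passed the test. Mknk1, Mtor and Eif2ak1 were among the genes called higher under the c-Myc inhibitor.

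Set against oocytes, alpha-amanitin embryos had 0 members called by edgeR, where 0.442% of all genes were higher and 1.27% lower (1.71% in all). At an unadjusted p under 0.05, 4 of 55 members were higher and 3 lower, against 10.6% of all genes in either direction. Eif2s2 came closest to a call, at 301, 319, 382 and 426 CPM with alpha-amanitin and at 217, 243, 234 and 201 CPM in oocytes, with no overlap. Its change was 0.69 (SE 0.18, edgeR adjusted p = 0.0512), and that of Eif4b 0.52 (adjusted p = 0.0606). Groups did not overlap in 2 members that were higher and 8 that were lower with alpha-amanitin, against 3.21% and 8.25% of all genes (11.5% in all). DESeq2, limma voom, RLE scaling and the fit of all 5 groups each called 2 members higher. Eif3l was at -1.88 (0.268), and Eif1b and Eif4a2 at 0.68 and 0.67. The 3 comparisons of the second series share libraries, so their values stand side by side and are not independent.

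**Figure D5:**
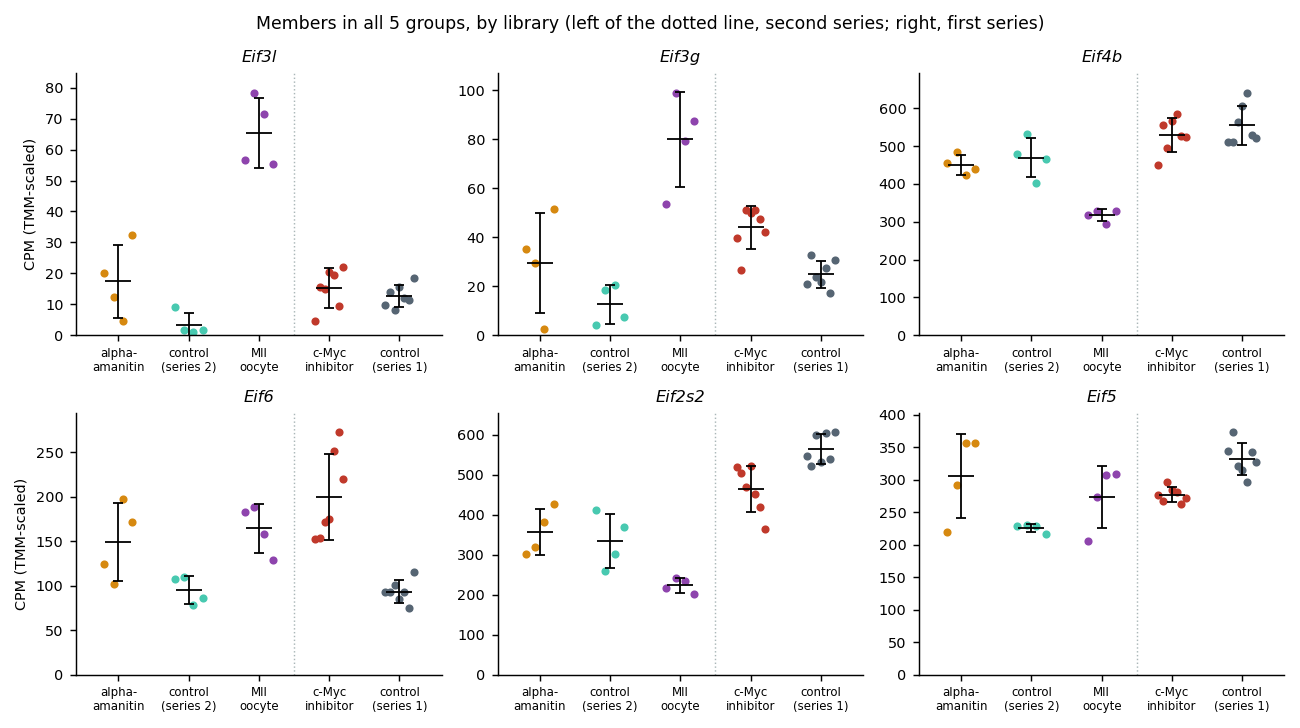
Level in CPM of 6 members in every library, with mean and SD, second series (n = 4 each) left of the dotted line and first series (n = 7 each) right of it. Eif3l and Eif3g are highest in oocytes, and Eif2s2 is higher in the control of the first series (521.2 to 607.1 CPM) than in any library of the second.

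The controls of the 2 series were not alike. Of 58 members tested in 1 fit of the 26 libraries 8 were higher in the control of the first series than in that of the second and 0 lower, where 2.21% of 16319 genes were higher and 1.32% lower (3.52% in all). Ranges did not overlap in 8 members, all higher in the first series, against 4.06% of genes higher and 1.64% lower (5.71% in all). Eif4a1, an eIF4F helicase, was at 346 ± 46.8 CPM (SD, n = 7) and 140.5 ± 25.99 CPM (SD, n = 4) in these controls, a log2 difference of 1.29 (edgeR, SE 0.14, adjusted p = 3.02e-07). Eif5b, which joins the ribosomal subunits, was at 740.5 ± 115.5 CPM and 375 ± 33.8 CPM (0.97, edgeR adjusted p = 2.38e-05). Eif3j1 was at 1.85, Eif2s3x at 1.76, Eif2s2 at 0.74, Eef1a1 at 0.72 and Eif5 at 0.54. Eif3l, at 1.90, lost its call when any of 9 libraries was omitted, control replicate 4 of the first series and replicate 1 of the second being the exceptions. The series and anything else that differed between them cannot be told apart, and levels set across the series carry that difference.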

How the data were processed

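The 26 sequencing libraries, from mouse oocytes and 1-cell embryos, were made with a kit that amplifies very small amounts of total RNA, per the labels' protocols. A series-wide table of unnormalised gene counts was deposited. The submitters' processing notes name cutadapt 1.7.1, STAR 2.5.0a and the build GRCm38. The assignment of reads to genes, by strand and annotation, was not given in the sources used here, and overlapping genes and near-identical copies are therefore uncertain.

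Counts were tested in R 4.3.3 with the edgeR 4.0.16 quasi-likelihood F test, TMM scaling, filterByExpr (minimum count 10, minimum total 15) and Benjamini-Hochberg adjustment over all genes tested (threshold 0.05). The c-Myc inhibitor comparison used the 14 libraries of the first series, and the comparisons within the second series its 12 libraries. The difference of effects used the 22 embryo libraries, and the comparison of controls all 26. Levels are CPM computed from TMM-scaled totals, and per kb of merged exon where genes are compared. The test was checked on simulated data with known changes. In each check 200 genes were changed, drawn at random from all that passed the filter, so recovery among the members may differ. For the c-Myc inhibitor comparison it recovered 55% of 2-fold and 65% of 4-fold changes, and 6.25% of its calls (8) were false. For alpha-amanitin against its control it recovered 4% of 2-fold and 33% of 4-fold changes, and 5.13% of its calls (2) were false. No pair of libraries agreed within sampling noise (lowest chi-square per degree of freedom 32.77).

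Named are members called in any comparison, up to 5 by smallest p where fewer were called, the 6 highest per kb, paralogue families, and called genes of each pathway list (at most 3 by p). Beyond that rule, further members and list genes were named to complete a role, after their values were seen. Members and lists were chosen with earlier results of these data known. Alternatives were RLE scaling, no filter, DESeq2 1.42.0, limma 3.58.1 voom, a replicate block, 1 fit of all groups and leaving out each library. A GC-content offset was added after the data were seen and run in 2 forms, first without and then with centring on each library's median.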

Additional observations from a re-analysis of the deposited data

Results flagged for a closer look

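In 151 sets of libraries (each named member in each group) the highest or lowest library was checked for a gap to the rest above Dixon's critical value, and 12 had one, where chance gives about 1 in 20. In the first series, Eif3j1 was at 99.9 CPM in treated replicate 4, with the next library at 61.9 CPM. Treated replicate 7 was highest for Eif5a2, at 3.73 CPM with the next at 0.369 CPM, and lowest for Eif4ebp2, at 11.6 CPM with the next at 34.3 CPM. Eif1a was at 0.862 CPM in control replicate 5 and at most 0.269 CPM in the other controls.

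In the second series, alpha-amanitin replicate 3, the shallowest library, had 341 CPM of Eif4a2, with the next at 146 CPM. Alpha-amanitin replicate 1 had 44.0 CPM of Eif3i, with the next at 32.1 CPM. Among control embryos, replicate 1 had 9.12 CPM of Eif3l (next 1.72 CPM), replicate 2 had 53.0 CPM of Eif1ax (next 117 CPM), replicate 3 had 147 CPM of Eif2s1 (next 107 CPM) and replicate 4 had 216 CPM of Eif5 (next 228 CPM). Among oocytes, replicate 4 had 112 CPM of Eif2s1 (next 97.7 CPM) and replicate 3 had 151 CPM of Eif5a (next 126 CPM).

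The effect of the c-Myc inhibitor differed from that of alpha-amanitin in Eif5, by -0.71 on the log2 scale (edgeR adjusted p = 0.0213). The gene was called lower with the c-Myc inhibitor (-0.26) and changed by 0.46, not called, with alpha-amanitin, each against its own control. The call of the difference was lost in 5 of 29 alternatives. Eif5 was also higher in the control of the first series than in that of the second (0.54, edgeR adjusted p = 0.00704).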

How the results depend on the processing

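Over 128 fits besides those reported, no member that a comparison called, or ranked among its 5 smallest p, changed direction in that comparison. Among members not called under the c-Myc inhibitor, the centred GC offset turned the sign of 3: Eif1ax (0.18), Eif4a2 (0.02) and Eef1d (-0.01). Under the c-Myc inhibitor, DESeq2 called 9 members lower, 1 fit of all 5 groups called 2 higher and 2 lower, and the centred GC offset called 3 lower, of which 0 were among the 5 reported. Of its 6 higher members 5 were among the 7 reported. Over all 13003 genes the centred offset called 745 higher and 365 lower. Without centring, the offset called 5 higher (4 shared) and 5 lower (1 shared). Leaving out 1 library gave 4 to 8 higher members (4 without control replicate 4 or 6, 8 without treated replicate 2) and 4 to 7 lower (7 without treated replicate 4). Labels give libraries of different groups the same numbers, but same-numbered libraries did not deviate together (correlations -0.00759 to 0.0547, none over 0.1), and not every library correlated best with its own number. With a replicate block, 3 members were higher under the c-Myc inhibitor, 1 was lower in control embryos than in oocytes, and 0 differed between the inhibitors' effects.

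Between control embryos and oocytes, higher members numbered 0 with no filter, 3 with DESeq2, 2 with limma voom and 5 in the fit of all 5 groups. Lower members numbered 5 with limma voom and 6 in the fit of all 5 groups. The GC offset without centring called 0 higher and 1 lower. Leaving out 1 library gave 0 to 3 higher and 1 to 4 lower, the most without alpha-amanitin replicate 3. Between alpha-amanitin embryos and oocytes, RLE scaling, DESeq2, limma voom and the fit of all 5 groups each called 2 higher, and leaving out 1 library gave 0 to 1 higher and 0 to 0 lower. For alpha-amanitin against its control every alternative gave 0, with a library left out 0 to 0. The difference of effects had 2 lower members with DESeq2 and 0 with limma voom or either GC offset, and 0 to 0 higher and 1 to 2 lower with a library left out (2 without control replicate 1 or alpha-amanitin replicate 2). Between the controls, DESeq2 called 2 lower members, and leaving out 1 library gave 7 to 8 higher and 0 to 1 lower. With raw totals the members' summed level in alpha-amanitin embryos was 6687.1 CPM. The cause of these changes was not tested.

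The spread between libraries was wider in the second series: edgeR's common coefficient of variation, which may be technical, was 1.12, against 0.555 in the first. The typical 95% interval of a member spanned a factor of 1.65 to either side for alpha-amanitin, against 1.22 for the c-Myc inhibitor.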
